A study of Mus musculus with 6 samples.

Results

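The genes of respiratory complexes II to V were taken from the heart transcriptomes of WT and *Dst-b* mutant mice by their symbols: *Cyc1*, *Sdha*, *Sdhb*, *Sdhc*, *Sdhd*, and every symbol that starts with *Uqcr*, *Atp5*, *Cox4*, *Cox5*, *Cox6*, *Cox7* or *Cox8*, except *Cox4i2*. This rule, which uses no measured value, found 46 of the 13003 listed genes, and all 46 were among the 12955 genes that passed the filter on low counts (at least 1 CPM in at least 3 libraries). Of the 46, 42 encode structural subunits: 4 of complex II, 9 of complex III, 14 of complex IV and 15 of complex V. The other 4 were taken up by the start of their symbol and are not counted as structural subunits (*Cox7a2l*, *Atp5s*, *Atp5sl* and *Cox4nb*).

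Poly-A RNA of the ventricular myocardium was sequenced from 3 WT mice (replicates 1, 3 and 4 by their labels) and 3 *Dst-b* mutant mice (replicates 1, 2 and 3), which carry on both chromosomes a nonsense allele in an exon specific to *Dst-b*. *Dst-b* is the muscle isoform of dystonin, a large cytoskeletal linker protein. The allele was made with CRISPR-Cas9, homozygotes came from crosses of heterozygotes on a C57BL/6J background, and all 6 mice were 14 to 19 months old. The study kept several mouse lines with this allele and used both sexes, without stating the line or the sex behind each library. The paper set aside *Xist*, *Tsix* and *Bmp10*, highly changed genes whose differences it attributes to extreme outliers in a single individual. Whether the libraries differ in sex was not tested here. The mutation is present in every cell that uses the exon, so the hearts do not come from a heart-specific deletion. The methods name a TruSeq protocol and the labels an NEBNext directional kit.

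The respiratory chain sits in the inner mitochondrial membrane. Complex II (succinate dehydrogenase) passes electrons from succinate to ubiquinone, complex III (cytochrome bc1) passes them on to cytochrome c, complex IV (cytochrome c oxidase) hands them to oxygen, and complex V (ATP synthase) makes ATP from the proton gradient that results. Heart muscle is among the tissues richest in these proteins, and several complex IV subunits exist in a muscle form and a ubiquitous form. All members described here are encoded in the nucleus; no mitochondrially encoded subunit is among the listed genes.

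The libraries held 40693854 to 57580110 tags, the estimated counts of the deposited tables. Counts were scaled by TMM and are given as CPM (counts relative to the scaled library total), always in the order WT replicates 1, 3 and 4 and then mutant replicates 1, 2 and 3. Means carry the SD over 3 mice. A gene was called at p under 0.01 with an adjusted p under 0.1 in the quasi-likelihood test of edgeR, adjusted by Benjamini-Hochberg over all 12955 genes, and every adjusted p below comes from that test unless another is named. With 3 mice a group, these p-values measure the spread between the 6 hearts only. *Dst* itself was at 448 ± 25.2 CPM in WT hearts against 429 ± 24.1 CPM in the mutants (log2 fold change -0.06, adjusted p = 0.703), a sum over isoforms that does not check the genotype labels. The 8 cardiomyocyte markers summed to 105086 to 108191 CPM in WT and 102422 to 113763 CPM in mutant hearts, and none was listed at 0.

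Transcripts of complexes II to V were lower in the mutant hearts by a small amount that was spread over most members. Of the 46 members, 5 fell and 0 rose past the threshold, with 43 of the 46 log2 fold changes below 0 and a median of -0.11. The members that fell were *Sdhc*, *Uqcrq*, *Uqcr10*, *Cox8b* and *Atp5g1*, by 13.7% to 18.0% of the WT mean. Among all tested genes 1.84% were called lower and 2.8% higher, 50% had a log2 fold change below 0, and the median was 0.00. In 22 members all 3 mutant values lay below all 3 WT values, in 1 they lay above, and in 23 the groups overlapped. Over all tested genes these shares were 10.5% below and 11.4% above. Of the members, 25 are short, abundant genes, with under 1000 bases of exon and a mean CPM of at least 100. Among all 195 tested genes of that kind 8.72% were called lower and 84.1% had a log2 fold change below 0. In 33.3% of the 195 every mutant value lay below every WT value. At an unadjusted p under 0.05 in the same test, 16 members were lower and 1 was higher. No share of all tested genes is given at that cut, here or below, so these counts lack a background. DESeq2, edgeR's exact test and limma likewise called 0 members higher.

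The 5 calls depend on the full set of 6 libraries. With WT replicate 1, WT replicate 3, WT replicate 4 or mutant replicate 1 left out, 0 members were called lower, although 15, 14, 12 and 12 still had an unadjusted p under 0.05. Without mutant replicate 2 the called members were *Atp5g1* and *Uqcrq*, and without mutant replicate 3 they were *Uqcrq*, *Sdhc*, *Atp5g3* and *Cox7a1*. Over all tested genes the lower calls dropped as well, from 238 to 114, 148, 123, 39, 217 and 164 in the same order. The median of the 46 members stayed between -0.13 and -0.09 in these 6 fits.

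**Figure D1:**
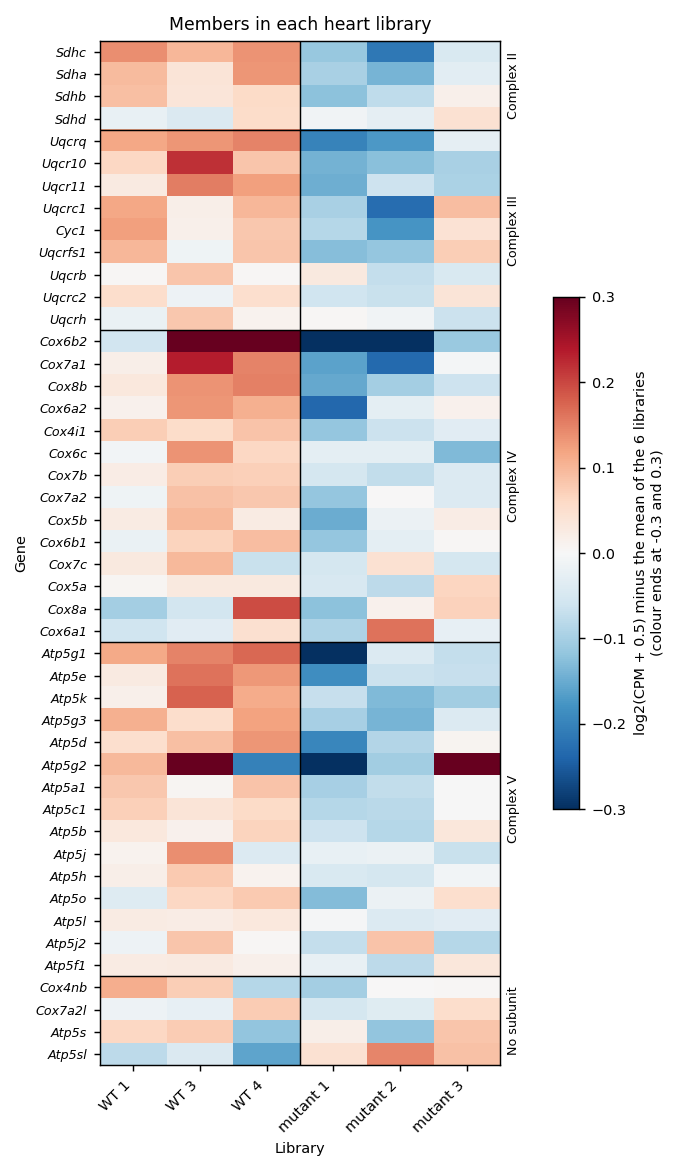
Heat map of the 46 members (rows, grouped by complex) in the 6 libraries (columns); colour is log2(CPM + 0.5) minus the member's mean over the 6 libraries, from -0.3 to 0.3. In 39 members the highest value is in a WT library and in 43 the lowest value is in a mutant library. No such counts are given for all tested genes. On this scale the median tested gene under 1000 bases stands at -0.005, 0.07 and 0.04 in WT replicates 1, 3 and 4. In mutant replicates 1, 2 and 3 that median is -0.04, -0.03 and -0.03.

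The mutant hearts were not equally low. The median member stood 0.03, 0.07 and 0.08 above its own mean over the 6 libraries, on the log2 scale, in WT replicates 1, 3 and 4. It stood at -0.10, -0.07 and -0.01 in mutant replicates 1, 2 and 3. Mutant replicate 3 was the nearest to the WT hearts. The lowest value of a member came from mutant replicate 1 in 23 members, from mutant replicate 2 in 16 and from mutant replicate 3 in 4.

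**Figure D2:**
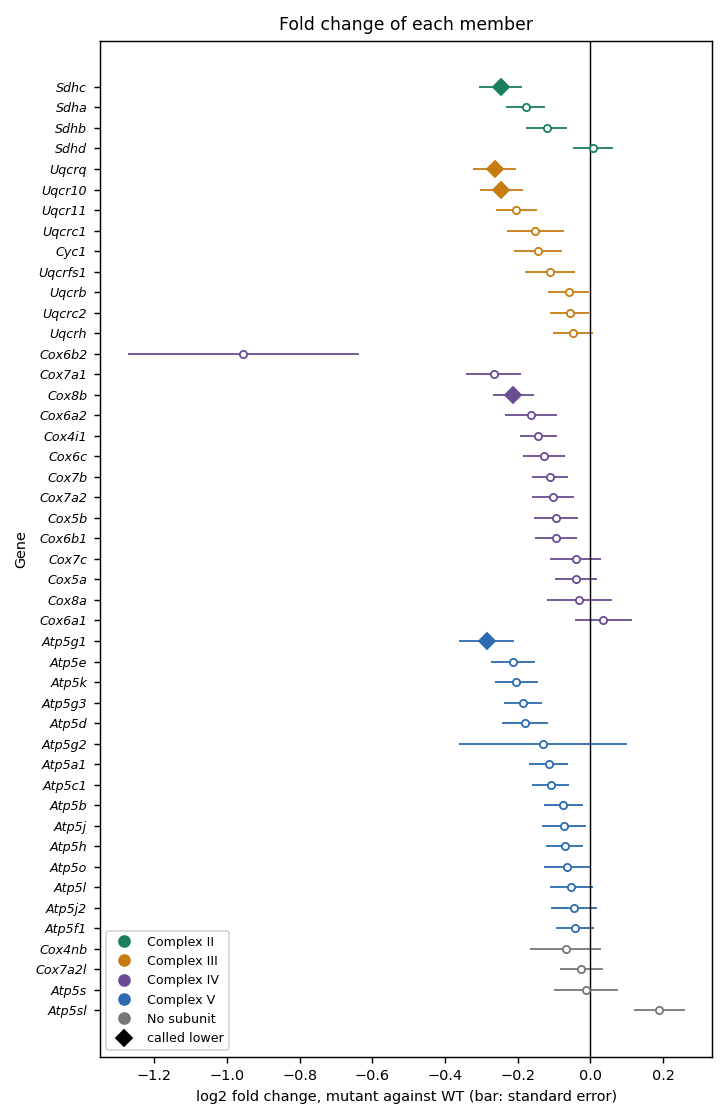
Log2 fold change of each member, mutant against WT, with its standard error, grouped by complex; filled diamonds mark the 5 members called lower. Of the 46 points 43 lie below 0, and *Cox6b2*, at 1 to 4 CPM, has the widest error bar.

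Summed over the subunits of a complex, the mutant hearts stood below every WT heart for all 4 complexes. For complex II the sums were 5042, 4871 and 5084 CPM in WT and 4421, 4373 and 4706 CPM in mutant hearts. Complex III summed to 10169, 10031 and 10196 CPM against 9132, 8891 and 9774 CPM, and complex IV to 14628, 15451 and 15276 CPM against 13278, 13851 and 14141 CPM. The most abundant, complex V, summed to 30704, 30757 and 31219 CPM against 27963, 28386 and 29679 CPM. The mean of the mutant hearts lay below that of the WT hearts by 9.98%, 8.55%, 9.01% and 7.18% in complexes II, III, IV and V, and mutant replicate 3 gave the highest mutant sum. As parts of all tags, the 46 members took 6.05% to 6.17% of a WT library and 5.61% to 5.75% of a mutant library. In a tissue sample a lower share of cardiomyocytes and less of these RNAs in each cardiomyocyte cannot be told apart.

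**Figure D3:**
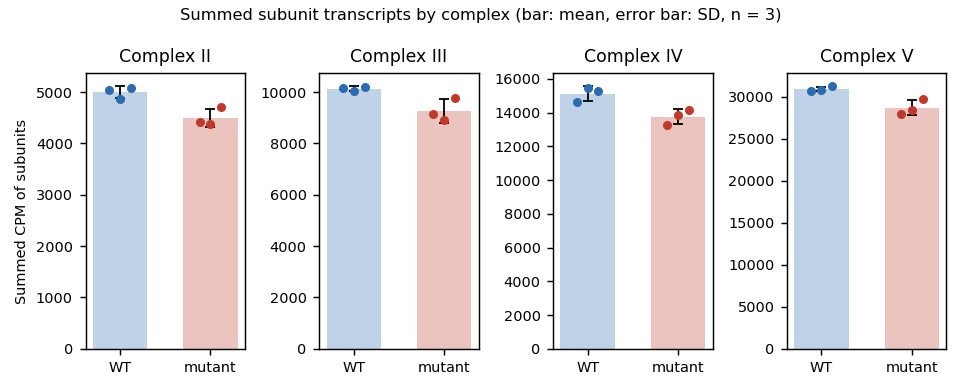
Summed CPM of the subunits of complexes II, III, IV and V; bars are means over 3 mice with the SD, points are mice. The 3 mutant points lie below the 3 WT points in every complex.

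Complex II, which also acts as an enzyme of the citric acid cycle, had 4 members, of which 1 fell, against 1.84% called lower among all tested genes. *Sdhc* (chromosome 1, 171129157 to 171150640 of GRCm38), a membrane anchor that helps bind ubiquinone and heme, stood at 661, 643 and 659 CPM in WT and 555, 517 and 582 CPM in mutant hearts. The groups were well apart, and the whole WT range spanned less than the gap to the nearest mutant heart. *Sdhc* fell by 15.8% (log2 fold change -0.25, standard error 0.06, adjusted p = 0.0639).

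*Sdha*, the flavoprotein that oxidises succinate, was at 2255, 2170 and 2316 CPM in WT and 1975, 1917 and 2065 CPM in mutant hearts. Every mutant heart was below every WT heart, but the test did not call it (log2 fold change -0.18, standard error 0.05, adjusted p = 0.132). *Sdhb*, the iron-sulfur subunit, was at 1735, 1672 and 1695 CPM against 1497, 1548 and 1649 CPM, again without overlap and without a call (log2 fold change -0.12, adjusted p = 0.312). *Sdhd*, the other membrane anchor and the partner of *Sdhc*, was at 391.6, 386 and 413 CPM in WT and 395, 391 and 411 CPM in mutant hearts. Its groups lay on top of each other (log2 fold change 0.01, standard error 0.06, adjusted p = 0.966). The subunits of this 1 complex therefore had fold changes from -0.25 to 0.01, and the difference between *Sdhc* and *Sdhd* was not tested.

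In complex III, 2 of 9 members fell (22.2%) and all 9 had a log2 fold change below 0, with a median of -0.14. Over all tested genes 1.84% were called lower and 50% were below 0, and over the 195 short, abundant genes 8.72% and 84.1%. Both called members of the complex, and the next in order of p, are small accessory subunits. *Uqcrq* (chromosome 11, 53427922 to 53430831), which lies beside cytochrome b in the complex, was at 846, 855 and 865 CPM in WT and 679, 693 and 766 CPM in mutant hearts. The WT hearts were close together and mutant replicate 3 was the nearest to them. *Uqcrq* fell by 16.7% (log2 fold change -0.26, standard error 0.06, adjusted p = 0.0543), the smallest p among the members.

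*Uqcr10* (chromosome 11, 4701968 to 4704344), a small subunit of the membrane part, was at 496, 553 and 503 CPM in WT and 431, 435 and 444 CPM in mutant hearts. Here the mutant hearts were the close ones and WT replicate 3 stood above the others. *Uqcr10* fell by 15.6% (log2 fold change -0.24, standard error 0.06, adjusted p = 0.0681). *Uqcr11*, another small subunit, was at 806, 880 and 862 CPM against 714, 758 and 740 CPM, without overlap (log2 fold change -0.20, adjusted p = 0.104).

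The catalytic and core subunits of complex III were not called. They are *Cyc1* (cytochrome c1), *Uqcrfs1* (the Rieske iron-sulfur protein) and the core proteins *Uqcrc1* and *Uqcrc2*, and in all 4 the groups overlapped. In each, mutant replicates 1 and 2 lay below every WT heart and mutant replicate 3 lay within the WT range. *Uqcrc2* was at 2028, 1937 and 2026 CPM in WT and 1878, 1869 and 2009 CPM in mutant hearts (log2 fold change -0.06, standard error 0.05, adjusted p = 0.652). Mutant replicate 3 was within the WT range of *Uqcrc2*. The other 3 had log2 fold changes of -0.15 (*Uqcrc1*), -0.14 (*Cyc1*) and -0.11 (*Uqcrfs1*) with adjusted p of 0.372, 0.312 and 0.452. The remaining small subunits, *Uqcrb* and *Uqcrh*, were at -0.06 and -0.05 with overlapping groups. The median log2 fold change was -0.20 over the 5 small subunits and -0.13 over the 4 core and catalytic ones, 2 medians whose difference was not tested. The small subunits have 441 to 577 bases of exon and the core and catalytic ones 1313 to 1882. With each library's trend with exon length removed, as described below, the medians were -0.13 and -0.11.

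In complex IV, 1 of 14 members fell (7.14%), 13 had a log2 fold change below 0, and 7 had every mutant heart below every WT heart. Over all tested genes these shares were 1.84%, 50% and 10.5%, and over the 195 short, abundant genes 8.72%, 84.1% and 33.3%. The median of the 14 members was -0.11. *Cox8b* (chromosome 7, 140898942 to 140900446), the muscle form of subunit VIII, was at 678, 728 and 736 CPM in WT and 596, 618 and 635 CPM in mutant hearts. The mutant hearts were all lower, with WT replicate 1 the nearest to them. *Cox8b* fell by 13.7% (log2 fold change -0.21, standard error 0.06, adjusted p = 0.0925).

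Its ubiquitous counterpart *Cox8a* was at 108, 111 and 133 CPM in WT and 106, 117 and 121 CPM in mutant hearts, with overlapping groups (log2 fold change -0.03, standard error 0.09, adjusted p = 0.905). *Cox7a1*, the muscle form of subunit VIIa, was at 1077, 1254 and 1179 CPM against 953, 905 and 1060 CPM. Its mutant values were all lower, mutant replicate 3 by little, and it was not called (log2 fold change -0.27, standard error 0.08, adjusted p = 0.110). The ubiquitous *Cox7a2* was at 701, 752 and 749 CPM against 652, 709 and 688 CPM, and the groups overlapped (log2 fold change -0.10, adjusted p = 0.410). *Cox6a2*, the muscle form of subunit VIa, was at 2032, 2209 and 2170 CPM against 1713, 1974 and 2034 CPM, where mutant replicate 3 just exceeded WT replicate 1 (log2 fold change -0.16, adjusted p = 0.285). For the ubiquitous *Cox6a1* the values were 97.6, 99.4 and 105 CPM against 95.4, 114 and 100.02 CPM, with overlap (log2 fold change 0.03, adjusted p = 0.870). The median over the 3 muscle forms was -0.21 and that over the 3 ubiquitous forms was -0.03.

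The balance of the muscle and ubiquitous forms was compared within each library as the log2 of their ratio. For *Cox6a2* over *Cox6a1* it was 4.37, 4.47 and 4.36 in WT and 4.16, 4.11 and 4.34 in mutant hearts. The groups did not overlap, although mutant replicate 3 came close to WT replicate 4 (difference of the means -0.20, exact permutation test, two-sided, p = 0.1, adjusted p = 0.2 over the 3 ratios). For *Cox7a1* over *Cox7a2* the log2 ratio was 0.62, 0.74 and 0.66 against 0.55, 0.35 and 0.62. For *Cox8b* over *Cox8a* it was 2.65, 2.70 and 2.47 against 2.48, 2.40 and 2.38. Both of these pairs overlapped, with differences of -0.16 and -0.18 (exact permutation test, p = 0.2 each, adjusted p = 0.2). With 3 mice against 3 the smallest p that this test can give is 0.1, so no ratio could pass a threshold of 0.05.

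**Figure D4:**
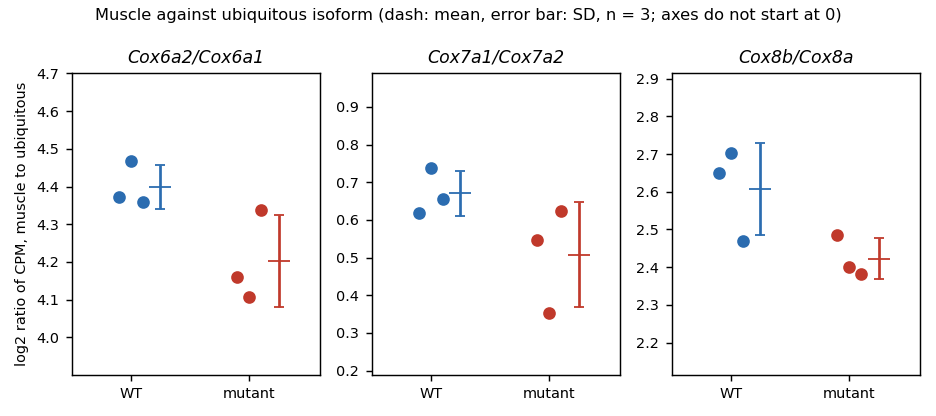
Log2 ratio of the muscle to the ubiquitous form of *Cox6a*, *Cox7a* and *Cox8* from CPM + 0.5 in each mouse (points), with mean and SD (dash and bar). The mutant mean is 0.16 to 0.20 lower in the 3 pairs, and the groups overlap in 2 of them.

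Per length of transcript, by RPKM, the muscle form made up 94.5% ± 0.21 of *Cox6a* in WT and 93.7% ± 0.49 in mutant hearts (SD, n = 3). For *Cox7a* these shares were 76.6% ± 0.74 and 74.5% ± 1.8, and for *Cox8* 90.2% ± 0.77 and 89.0% ± 0.37. The muscle forms therefore remained the main forms in every heart.

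The promoters of the *Cox8* pair are shown because this pair holds the called muscle isoform. Each is given from 250 bases before to 50 bases after the start of the gene, read 5′ to 3′ on the gene's strand (RefSeq, GRCm38.p6), with matches to the searched motifs in capitals. *Cox8b* lies at chr7:140900397-140900696 and *Cox8a* at chr19:7217567-7217866, both on the minus strand.
Cox8b: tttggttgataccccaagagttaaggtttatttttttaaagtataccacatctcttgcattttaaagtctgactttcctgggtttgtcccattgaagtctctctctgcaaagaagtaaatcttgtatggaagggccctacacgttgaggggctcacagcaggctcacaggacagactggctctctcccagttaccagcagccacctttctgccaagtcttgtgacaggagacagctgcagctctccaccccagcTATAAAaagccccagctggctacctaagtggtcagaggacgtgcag
Cox8a: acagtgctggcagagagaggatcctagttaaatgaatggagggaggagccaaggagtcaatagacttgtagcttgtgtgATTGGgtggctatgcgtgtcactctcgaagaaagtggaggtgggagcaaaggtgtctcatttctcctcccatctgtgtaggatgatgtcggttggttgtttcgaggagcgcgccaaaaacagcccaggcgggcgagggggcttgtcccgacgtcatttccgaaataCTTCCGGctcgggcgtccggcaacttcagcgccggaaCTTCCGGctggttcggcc
The *Cox8b* window holds 2 CG dinucleotides and 48.3% G and C, and its only match is a TATAAA, at bases 255 to 260 of the window. This match begins 4 bases after the annotated start of the gene, and not before it. The *Cox8a* window holds 19 CG dinucleotides and 56% G and C, with CTTCCGG at bases 246 to 252 and 283 to 289, the reverse complement of the ETS motif, and an ATTGG at bases 80 to 84. A match is a run of letters and not a measured binding site.

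*Cox6b2*, known as the testis form of subunit VIb, was near the filter on low counts. It was at 1.86, 3.92 and 2.53 CPM in WT and 1.11, 1.38 and 1.77 CPM in mutant hearts. The mutant values were all lower, mutant replicate 3 just below WT replicate 1, and the log2 fold change of -0.96 had a standard error of 0.32 (adjusted p = 0.171). The somatic form *Cox6b1* was at 1057, 1123 and 1142 CPM against 989, 1049 and 1074 CPM, with overlap (log2 fold change -0.09, adjusted p = 0.454). *Cox4i1*, the main form of subunit IV, was at 3441, 3398 and 3470 CPM against 3015, 3126 and 3195 CPM. Its WT hearts were close together and all above the mutant hearts, without a call (log2 fold change -0.14, standard error 0.05, adjusted p = 0.188).

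The other nuclear subunits of complex IV were not called. *Cox7b*, *Cox6c* and *Cox5b* had every mutant heart below every WT heart, at log2 fold changes of -0.11, -0.13 and -0.10 with adjusted p of 0.298, 0.311 and 0.471. *Cox5a* and *Cox7c* overlapped, at -0.04 each.

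In complex V, 1 of 15 members fell (6.67%), all 15 had a log2 fold change below 0, and in 9 the groups did not overlap. Over all tested genes 1.84% were called lower, 50% were below 0 and 10.5% lay below WT without overlap. Over the 195 short, abundant genes these shares were 8.72%, 84.1% and 33.3%. The called member belongs to the membrane ring of subunit c, whose rotation drives ATP synthesis and for which *Atp5g1*, *Atp5g2* and *Atp5g3* encode the same mature protein. *Atp5g1* (chromosome 11, 96072793 to 96075694) was at 1105, 1133 and 1151 CPM in WT and 817, 992 and 971 CPM in mutant hearts. Mutant replicate 1 stood well below the other 2 mutant hearts, and all 3 were below WT. *Atp5g1* fell by 18.0% (log2 fold change -0.29, standard error 0.07, adjusted p = 0.0839).

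*Atp5g3*, the most abundant of the 3 genes in these hearts, was at 2662, 2565 and 2688 CPM in WT and 2308, 2246 and 2402 CPM in mutant hearts. The groups did not overlap and the gene missed the threshold (log2 fold change -0.19, standard error 0.05, adjusted p = 0.106). *Atp5g2* was at 5.68, 6.68 and 4.52 CPM against 3.75, 4.87 and 6.79 CPM, with overlap (log2 fold change -0.13, standard error 0.23, adjusted p = 0.832). By RPKM, *Atp5g1* made up 26.5% ± 0.60 of the sum of *Atp5g1* and *Atp5g3* in WT and 25.2% ± 2.1 in mutant hearts (SD, n = 3), with overlapping values.

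Among the 5 subunits of the catalytic F1 head, 4 had every mutant heart below every WT heart. The quasi-likelihood test called 0 of them, with 2 (*Atp5e* and *Atp5d*) at an unadjusted p under 0.05. *Atp5a1*, the alpha subunit, was at 6316, 5995 and 6335 CPM in WT and 5568, 5676 and 5969 CPM in mutant hearts. The groups did not overlap, and mutant replicate 3 came close to WT replicate 3 (log2 fold change -0.12, adjusted p = 0.313). *Atp5e*, the epsilon subunit, was at 870, 955 and 934 CPM against 750, 816 and 813 CPM, without overlap (log2 fold change -0.21, standard error 0.06, adjusted p = 0.109). *Atp5d* and *Atp5c1*, the delta and gamma subunits of the central stalk, had log2 fold changes of -0.18 and -0.11 (adjusted p = 0.194 and 0.317). *Atp5b*, the beta subunit and the most abundant member at 7817 ± 149 CPM in WT hearts against 7422 ± 329 CPM in the mutants, overlapped (log2 fold change -0.07, adjusted p = 0.529).

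The peripheral stalk and the membrane part outside the ring were nearest to 0. Over the 4 peripheral stalk members the median log2 fold change was -0.07, and over the 3 membrane members it was -0.05. *Atp5k*, the subunit e that helps ATP synthase form dimers, was the exception at 632, 707 and 675 CPM against 596, 570 and 582 CPM. Its groups did not overlap (log2 fold change -0.20, standard error 0.06, adjusted p = 0.114). *Atp5h* and *Atp5l* also did not overlap, at log2 fold changes of -0.07 and -0.05. The rest (*Atp5j*, *Atp5o*, *Atp5f1* and *Atp5j2*) overlapped, at -0.07 to -0.04.

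The promoters of the called *Atp5g1* and *Uqcr10* are shown for comparison with the *Cox8* pair, from the same source and in the same form. *Atp5g1* is at chr11:96075582-96075881 and *Uqcr10* at chr11:4704295-4704594, both on the minus strand. No promoter of *Sdhc* or *Uqcrq* was matched.
Atp5g1: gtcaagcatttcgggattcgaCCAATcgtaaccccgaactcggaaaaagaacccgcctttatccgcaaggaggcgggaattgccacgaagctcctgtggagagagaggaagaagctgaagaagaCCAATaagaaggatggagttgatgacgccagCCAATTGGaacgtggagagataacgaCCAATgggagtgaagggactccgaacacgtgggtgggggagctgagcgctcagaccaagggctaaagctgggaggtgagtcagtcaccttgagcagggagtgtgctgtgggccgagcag
Uqcr10: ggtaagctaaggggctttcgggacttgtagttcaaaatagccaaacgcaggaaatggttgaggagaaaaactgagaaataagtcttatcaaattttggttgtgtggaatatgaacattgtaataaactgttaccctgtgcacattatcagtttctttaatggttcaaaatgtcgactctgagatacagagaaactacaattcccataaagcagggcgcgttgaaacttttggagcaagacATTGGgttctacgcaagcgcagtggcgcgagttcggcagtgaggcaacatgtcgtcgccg
The *Atp5g1* window has 5 matches to CCAAT or its reverse complement, of which 2 overlap as CCAATTGG, and the *Uqcr10* window has 1, ATTGG at bases 241 to 245. The motifs were searched on both strands in the 36 members with a promoter in the RefSeq table. CCAAT was found in 20 of the 36 (55.6%), against 42.5% of 10298 tested genes and 41.1% of 27025 genes. The NRF1 motif (GCGC, any base, TGCGC) was found in 10 (27.8%, against 11.2% and 5.19%), the ETS motif CCGGAAG in 12 (33.3%, against 19.5% and 9.93%) and the ERR motif AAGGTCA in 5 (13.9%, against 3.86% and 5.38%). YY1 (AANATGGC) was found in 6 (16.7%, against 9.76% and 6.96%), and TATAAA in 2, *Cox8b* and *Atp5l* (5.56%, against 8.97% and 15.7%). Of the 3 called members with a promoter, none held NRF1, ETS, ERR or YY1 letters, and *Cox8b* alone held TATAAA.

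Levels differ widely between members. By RPKM, which divides by transcript length, WT means ran from 307 to 1576 in complex II, 597 to 1779 in complex III, 4.47 to 5001 in complex IV and 8.64 to 4135 in complex V. The highest were *Cox4i1* at 5001, *Atp5b* at 4135, *Cox6c* at 4012 and *Atp5g3* at 3862 RPKM. The lowest were *Cox6b2* at 4.47 and *Atp5g2* at 8.64 RPKM, and *Atp5l*, *Cox7c*, *Cox6a1* and *Cox8a* were next among the subunits, at 155, 165, 188 and 214 RPKM. Reads from sequence that a gene shares with a copy may be split or lost in counting, so the levels of such members are uncertain. Of the 75-base stretches of their transcripts, 76% in *Atp5l*, 36.5% in *Atp5h*, 29.1% in *Uqcrb*, 27.9% in *Atp5f1* and 25% in *Cox7c* also occur in other annotated genes. These 5 members ran from 155 to 2808 RPKM in WT. *Sdhc*, *Uqcrq*, *Uqcr10* and *Cox8b* share no such stretch with another gene, and *Atp5g1* shares 7.63% of its own. These shares refer to an annotated transcript of each gene, which can differ from the exons that were counted. For *Atp5g1* that transcript has 4715 bases, against 805 bases of counted exon.

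The 4 members that are no subunits had log2 fold changes on both sides of 0. *Atp5sl*, now *Dmac2*, an assembly factor of complex I, was at 37.9, 38.8 and 35.8 CPM in WT and 41.3, 44.4 and 42.6 CPM in mutant hearts. It was the 1 member with every mutant heart above every WT heart, and it was not called (log2 fold change 0.19, standard error 0.07, adjusted p = 0.210). *Cox7a2l*, which helps join complexes III and IV, *Atp5s* and *Cox4nb*, now *Emc8*, a subunit of a membrane complex of the endoplasmic reticulum, were at -0.02, -0.01 and -0.07 with overlapping groups.

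Most members are short, and short transcripts as a class were lower in the mutant libraries. Of the 880 tested genes with under 1000 bases of exon, 66.6% had a log2 fold change below 0 and the median was -0.07. In this class 4.66% were called lower and 1.02% higher, and 21.2% had every mutant value below every WT value, against 4.89% above. The 29 members under 1000 bases had 4 called lower (13.8%), 16 below WT without overlap, and a median of -0.13.

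Level was considered in the same way. Among the 1613 tested genes whose mean CPM reached 100, 3.41% were called lower and 5.64% higher, 16.1% lay below WT and 15.2% above without overlap, and 53.8% had a log2 fold change below 0. This class holds 39 members, with 5 called lower and 20 below WT without overlap. Genes that were both short and at this level numbered 195, of which 8.72% (17 genes) were called lower and 1.03% higher, 33.3% lay below WT and 1.54% above without overlap, and 84.1% had a log2 fold change below 0, with a median of -0.09. They include 25 members, which contributed 4 of the 17 calls; 14 of the 25 lay below WT without overlap. The 17 members of at least 1000 bases had a median of -0.11 with 1 called, *Sdhc*, where the 12075 tested genes of that length had a median of 0.0043.

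**Figure D5:**
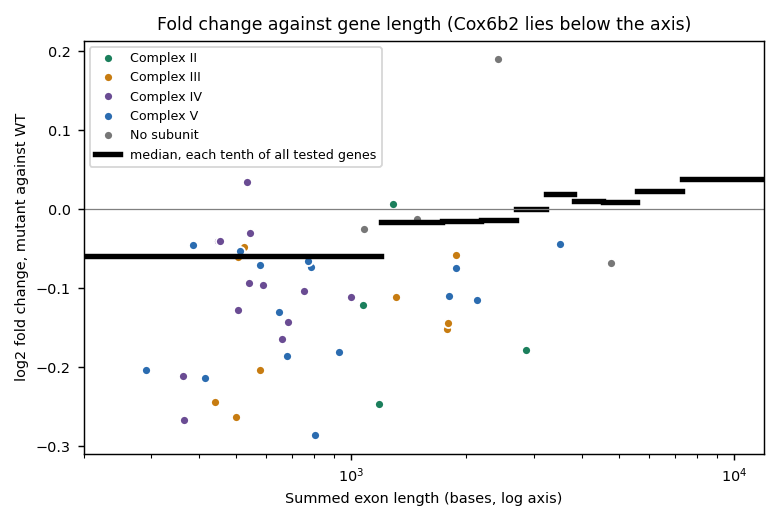
Log2 fold change against the summed exon length in bases (log axis); points are the members, and black bars are the medians of 10 equal groups of the tested genes by length. The medians run from -0.06 in the shortest group, which holds 33 members, to 0.04 in the longest; *Cox6b2* lies below the axis.

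When each library's trend with exon length was removed before the test, 1 member was still called lower, *Sdhc* (log2 fold change -0.21, adjusted p = 0.0972). The same fit gave *Atp5g1* -0.23 (adjusted p = 0.158), *Uqcrq* -0.18 (adjusted p = 0.155), *Uqcr10* -0.16 (adjusted p = 0.178) and *Cox8b* -0.12 (adjusted p = 0.3004). The median of the 46 members was then -0.07, with 33 below 0, and that of all tested genes was -0.0013. By length the short members were at a median of -0.05 and the longer members at -0.08.

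Other genes of the pathway were counted from lists. Complex I, the entry point for electrons from NADH, had 36 tested subunits, of which 3 fell (8.33%), with 32 log2 fold changes below 0 and a median of -0.10, or -0.06 with the length trend removed. Over all tested genes 1.84% were called lower and 50% were below 0, and over the 195 short, abundant genes 8.72% and 84.1%. The median of those 195 genes was -0.09, or -0.02 with the length trend removed. *Ndufc1*, *Ndufs6* and *Ndufa6*, accessory subunits of complex I, had log2 fold changes of -0.24, -0.21 and -0.20 (adjusted p = 0.0502, 0.0760 and 0.0873). Among 16 electron carriers and coenzyme Q genes, 1 fell and 15 were below 0, with a median of -0.12. It was *Coq10a*, a coenzyme Q binding protein, at 225 ± 11.6 CPM in WT hearts against 186 ± 12.9 CPM in the mutants (adjusted p = 0.0815).

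Of the assembly factors, 1 rose and 1 fell. Among 15 for complex IV, *Cox19*, a factor for the copper site, rose from 47.1 ± 2.39 to 59.2 ± 3.25 CPM (log2 fold change 0.33, adjusted p = 0.0481), and the median was -0.04. Among 7 genes for assembly and regulation of complex V, *1110001J03Rik*, now *Fmc1*, fell from 83.7 ± 1.39 to 69.8 ± 4.50 CPM (log2 fold change -0.26, adjusted p = 0.0863). No call was made among the 2 for complex II or the 4 for complex III in the quasi-likelihood test of edgeR.

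Markers of other cells were measured beside these results. Of 6 pericyte markers 5 fell (*Kcnj8*, *Notch3*, *Pdgfrb*, *Rgs5* and *Abcc9*), and their sum was 821 to 900 CPM in WT and 606 to 728 CPM in mutant hearts. Of 6 endothelial markers 2 fell (*Tie1* and *Egfl7*), with sums of 1029 to 1176 and 923 to 1045 CPM, and of 5 smooth muscle markers 1 rose (*Acta2*), with sums of 368 to 383 and 427 to 524 CPM. The higher sum in mutant hearts came from *Acta2* alone, at 72.6 ± 7.26 CPM in WT hearts against 184 ± 20.7 CPM in the mutants, since the other 4 (*Cnn1*, *Myh11*, *Tagln* and *Smtn*) had log2 fold changes of -0.12 to -0.0023 with overlapping groups. Of 7 fibroblast markers 1 rose (*Col1a1*), with sums of 1909 to 2202 and 2029 to 2269 CPM. Among the 8 cardiomyocyte markers *Actc1*, cardiac actin, rose and *Mb*, myoglobin, fell. No marker was called among 5 of macrophages (270 to 307 and 277 to 327 CPM), 5 of adipocytes (1021 to 1542 and 1249 to 1461 CPM) or 2 of nerve (3.77 to 6.48 and 5.54 to 6.83 CPM). Nor was any among 4 of atrial or skeletal muscle, which summed to 231, 1091 and 275 CPM in WT replicates 1, 3 and 4 and 885 to 1023 CPM in mutant hearts. Most of the mutant sums was *Nppa*, which ventricles also express under load, at 877, 926 and 639 CPM. The other 3 (*Myl4*, *Myl7* and *Sln*) had log2 fold changes of -0.71, -0.80 and -0.73 and were highest in WT replicate 3, with overlapping groups. No marker was listed at 0, and the part of these cells in the levels of the respiratory genes was not tested.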

How the data were processed

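The authors mapped paired-end reads to GRCm38/mm10 with OLego and counted tags with Quantas (versions not given in the sources used here). The deposited tables give, for each of 13003 genes in each library, the summed exon length, an estimated count of tags, and the RPKM. Although the labels speak of CPM, the values are estimated counts, and the test for counts was used; decimals (8.45% to 13.8% of genes in a library) were rounded. The 46 members and all lists were chosen with earlier results of these data known. The test was edgeR 4.0.16 (R 4.3.3) quasi-likelihood, two-sided, with genotype as the only term, TMM factors (0.980 to 1.019) and Benjamini-Hochberg adjustment. It was tested on simulated data, and no result is given here for changes as small as those reported. CPM are TMM-scaled, and RPKM served only for levels and isoform shares. Isoform ratios used log2 of CPM + 0.5 and an exact permutation test over samples. Per-library values were given for called members, isoform families, complex II, members the study names and the 2 of smallest p in each complex, and at most 4 called genes of each other list. *Uqcr11*, *Atp5e*, *Atp5k* and *Atp5sl*, 4 members with no overlap, and the single marker genes were named once their values were known. The length trend was a lowess of log2 deviation on log2 exon length in each library (span 0.5), used as an offset. Alternatives were 3 other scalings, a mean CPM of at least 5 or no filter at all, the length trend, a replicate block, DESeq2 1.42.0, edgeR's exact test, limma 3.58.1 with a trend, other thresholds and pseudocounts, and leaving out each library. The split by length and by level was added after the values were seen. Motif matches were searched in RefSeq promoters. Tables used pandas 2.3.3 under Python 3.11.15, and figures matplotlib 3.10.9.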

Additional observations from a re-analysis of the deposited data

How the results depend on the processing

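The count of 5 members called lower became 1 with the length trend removed, 2 with the replicate number as a block, 12 with DESeq2 and 0 at an adjusted p under 0.05 in edgeR's quasi-likelihood test, where 16 had an unadjusted p under 0.05. Leaving out 1 library gave 0 to 4, with 39 to 217 lower calls over all genes. It was 5 to 7 under the other scalings, filters and tests, and 0 members were called higher under each alternative. DESeq2 called *Sdha*, *Uqcr11*, *Cox7a1*, *Cox6b2*, *Atp5e*, *Atp5k* and *Atp5g3* beside the 5. Over all genes DESeq2 called 580 higher and 448 lower, against 363 and 238 in edgeR's quasi-likelihood test. The median of the members moved from -0.11 to -0.066 with the length trend removed. The replicate numbers 1 and 3 are shared between the groups. Deviations of same-numbered libraries correlated at r = 0.007 and -0.05, within the -0.09 to 0.11 of pairs with unlike numbers. With so few libraries this cannot show whether same-numbered mice shared a batch. Number 2 occurs only in a mutant library and number 4 only in a WT library. Under the block the genotype difference therefore came from the libraries numbered 1 and 3 alone, which leaves little to estimate the spread. The block called *Atp5g1* and *Uqcr10* and took the calls over all genes from 363 higher and 238 lower to 509 and 457. Signs changed in members near 0: *Cox6a1* was -0.012 with the block, and *Cox8a* was 0.052 with the block and 0.046 with the length trend removed. Leaving out 1 library gave -0.38 to 0.046 for *Atp5g2*, -0.049 to 0.085 for *Cox6a1*, -0.088 to 0.068 for *Cox8a* and -0.015 to 0.037 for *Sdhd*. The isoform ratios kept their direction under each alternative run, with differences of -0.27 to -0.086 when 1 library was left out. The exact test of edgeR called *Cox6b2* and not *Cox8b*. Why these settings change the calls was not tested. With 3 mice a group, the members above 100 CPM had standard errors of 0.05 to 0.09 beside a median difference of -0.11, and *Cox6b2* and *Atp5g2*, at a few CPM, are the least precise.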
